A study of Mus musculus with 12 samples.

Results

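The genes described here write, copy, erase or read DNA methylation. They are the TET dioxygenase genes Tet1, Tet2 and Tet3, the DNA methyltransferase genes Dnmt1, Dnmt3a, Dnmt3b and Dnmt3l, the maintenance cofactor gene Uhrf1 and the methyl-CpG reader gene Mbd1. They were chosen by gene name, 9 genes of the 20409 in the screen tables. The measurements come from ORFtag screens in mouse embryonic stem cells, in which a retroviral cassette integrates at random and its promoter drives a protein tag whose splice donor joins it to the next exon downstream. Cells were then sorted by the GFP level of a reporter that the tag can reach, and insertion sites were mapped in sorted and unsorted cells. A gene whose tagged product shifts the reporter therefore holds more insertions among sorted cells than among unsorted cells.

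Each of the 3 screens used its own clonal reporter line on a wild-type background, and each gave 2 sorted and 2 unsorted libraries, 12 in all. The cells were a diploid line derived from haploid embryonic stem cells, and because the files hold insertion positions and no expression, their identity could not be checked on marker genes. In the activator screen the tag was TetR, the reporter carried 7 TetO sites and a MYLPF minimal promoter upstream of GFP at an expression-stable locus, and GFP-positive cells were sorted. The repressor screen also used TetR and 7 TetO sites, placed between an EF1-driven BFP gene and a PGK-driven GFP gene at that same locus, and GFP-negative cells were sorted. The screen named PTGR, for post-transcriptional gene regulators, used the λN peptide as tag and a randomly integrated reporter with 10 boxB sites after GFP, in cells that also carried CreERT2, and GFP-low cells were sorted repeatedly before Cre removed the boxB sites and cells with restored GFP were taken in a last sort. All 6 unsorted libraries were summed as a shared background, so the comparisons in the 3 screens are not independent of each other. The sorted libraries held 14705 to 60980 insertions within 200 kb of their assigned exon, and the unsorted libraries held 54088 to 233799. Each library contributes positions and no read counts, and neighbouring or repeated recoveries of 1 cell clone cannot be told from separate events. Sorted and unsorted libraries of the same number shared positions, which made up 4.96% and 19.5% of activator sorted positions, 8.17% and 8.23% of repressor sorted positions and 18.2% and 6.76% of PTGR sorted positions. In the repressor screen sharing did not follow the number, since sorted replicate 1 shared 9.86% with unsorted replicate 2. The intervals and limits below therefore cover counting error only. Fisher's exact tests pool the replicates and take no account of the spread between them, and edgeR p-values measure only the spread between these libraries.

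DNA methyltransferases add a methyl group to cytosine, mostly where it is followed by guanine. Dnmt3a and Dnmt3b set new methylation, Dnmt3l stimulates them without being an active enzyme itself, and Dnmt1 with Uhrf1 copies the pattern to the daughter strand after replication. TET enzymes oxidise methylated cytosine, the first step of its removal, and Tet1 and Tet2 are the TET genes most expressed in mouse embryonic stem cells. Mbd1 binds methylated DNA and is known as a transcriptional repressor.

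What the tag is joined to depends on the exon that receives it, so the splice acceptors that collected most insertions are shown first. In each sequence the last 20 bases of the intron are in lower case and the first 10 bases of the exon in capitals, read 5′ to 3′ on the strand of the gene in GRCm38.p6. The Tet2 pair is shown because the result below turns on it, and the other acceptors are the most used one of Tet1, Dnmt3b, Uhrf1 and Dnmt1. They lie at chr3:133514164-133514193 (minus strand, Tet2 exon 2), chr3:133488708-133488737 (minus, Tet2 exon 3), chr10:62880124-62880153 (minus, Tet1 exon 2), chr2:153650765-153650794 (plus, Dnmt3b exon 2), chr17:56305066-56305095 (plus, Uhrf1 exon 2) and chr9:20942610-20942639 (minus, Dnmt1 exon 2).
Tet2 exon 2: gcaaactctgtcttctctagGCTGGTATAC
Tet2 exon 3: acttttttctgtgtctttagGATTCATTCA
Tet1 exon 2: atttgctattgttattttagACCCCAAACT
Dnmt3b exon 2: gaccttcctctgtccaccagGCCCGCTGAG
Uhrf1 exon 2: ccctctctctctctctccagTACATCGGCA
Dnmt1 exon 2: tatttatttcctttacccagGCTCAAAGAC

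These exons differed in what lies between the acceptor and the start codon. Tet2 exon 2 is a noncoding exon of 145 bases, and 191 bases of transcript separate its acceptor from the start codon in exon 3. Within them stands 1 stop codon in the frame of the coding sequence, at base 111. Tet2 exon 3 holds the start codon 46 bases after its acceptor, with 0 in-frame stop codons before it. Tet1 exon 2 had 2 in-frame stops in the 119 bases before its start codon, and Dnmt3b exon 2 had 1 in 121 bases. Uhrf1 exon 2 reached the start codon after 12 bases with 0 stops, and Dnmt1 exon 2 is already coding and keeps 98.4% of the coding sequence. The last in-frame stop before the start codon is shown in capitals with 12 bases on each side, at chr3:133514049-133514075 (minus, Tet2), chr10:62880045-62880071 (minus, Tet1) and chr2:153650852-153650878 (plus, Dnmt3b).
Tet2 exon 2 stop: gtcaacaggacaTGAtccaggaggagc
Tet1 exon 2 stop: gcaaaggaccaaTGAcactgtgccccg
Dnmt3b exon 2 stop: ctcccccatccaTAGtgccttgggacc

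Tet2 was the member that stood out in the repressor screen. Its insertions took a larger share in sorted cells than in the background, and the gain lay at exon 3, the exon with the start codon. The repressor sorted libraries held 45 and 25 Tet2 insertions, or 20.2 and 16.4 per 10000. Unsorted cells gave 102 and 91 in the activator line, 97 and 80 in the repressor line and 116 and 17 in the PTGR line, which is 3.14 to 5.82 per 10000. Both sorted libraries lay above all 6 unsorted libraries, with no overlap. Tet2 lies at chr3:133463679-133545139 on the minus strand.

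Summed over replicates, 70 of 37470 sorted insertions belonged to Tet2 against 503 of 1022126 in the background, where 18.4 would have been found at the background rate. The log2 odds ratio was 1.93 ± 0.18 (standard error from counts), with an exact 95% interval of 1.54 to 2.29, and it was 2.04 in replicate 1 and 1.74 in replicate 2. Fisher's exact test (one-sided, Benjamini-Hochberg adjusted) gave an adjusted p of 1.1e-17 over the 2346 genes with at least 3 sorted insertions. A gene was called at an adjusted p below 0.001 with a log2 odds ratio of at least 1, and 8.18% of tested genes were called in this screen, so the 1 member called among the 4 that reached 3 insertions is read against that share. By edgeR's quasi-likelihood test within the screen's own 4 libraries, which uses the spread between replicates, the log2 fold change was 2.10 with an adjusted p of 9.4e-13, among 9.97% of genes that were higher at an adjusted p below 0.05. With sorted replicate 1 or 2 left out, which leaves 1 sorted library assumed to vary like the unsorted pair, edgeR gave 1.89 (adjusted p = 0.26) and 2.40 (adjusted p = 0.088). The exact permutation test over 2 against 2 libraries cannot go below p = 0.333 and was not used.

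**Figure D1:**
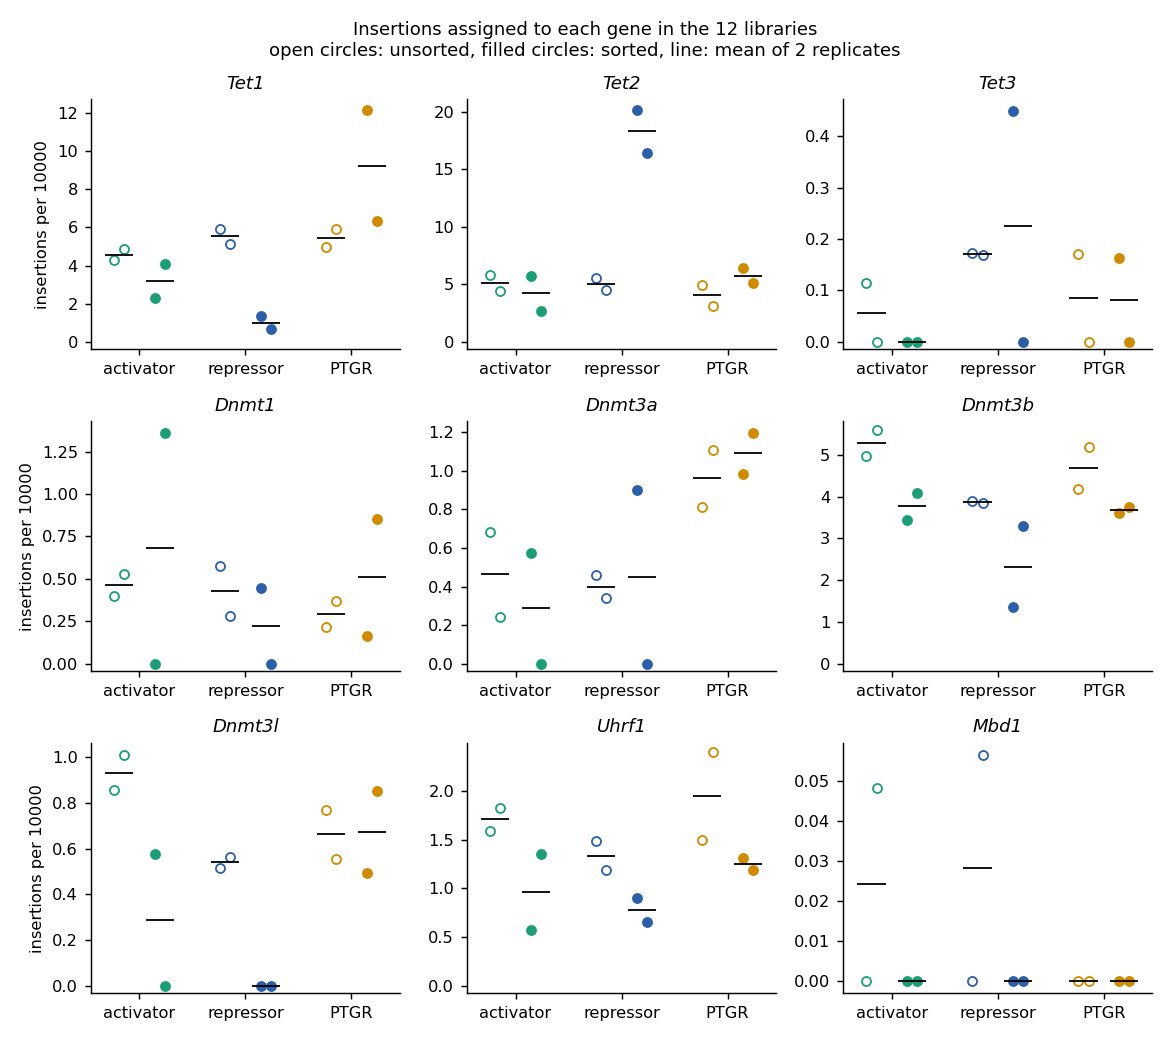
Insertions assigned to each of the 9 genes, per 10000 insertions of the library (vertical axis), in the activator, repressor and PTGR lines; open circles are unsorted and filled circles sorted libraries, and lines are means of 2 replicates. Tet2 in the 2 repressor sorted libraries (20.2 and 16.4) lies above all other libraries, and Tet1 is lowest there (1.35 and 0.658).

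Positions were partly shared between the replicates of this screen. Of the 45 Tet2 positions in replicate 1 and the 25 in replicate 2, 11 were the same base on the same strand, which is 24.4% and 44.0% of them. Over all genes, the replicates shared 4892 positions, 18.2% of those in sorted replicate 1 and 26.0% of those in sorted replicate 2. Sorted replicates shared 1.76% and 2.26% in the activator screen and 0.546% and 0.591% in the PTGR screen, less than in the repressor screen. Whether the sharing narrows the spread that edgeR uses was not tested. Counting each position 1 time over the sorted pair and 1 time over the unsorted libraries left 59 Tet2 positions and a log2 odds ratio of 1.88 (adjusted p = 1.7e-14, Fisher's exact test). This count was added after the data were seen.

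The exon that received the tag differed between sorted and unsorted cells. In the background, 426 of 503 Tet2 insertions were assigned to exon 2, 69 to exon 3 and 8 to later exons. In repressor sorted cells the order was turned round, with 8 insertions at exon 2 and 62 at exon 3. Replicate 1 had 40 of 45 at exon 3 (88.9%, 95% Wilson interval 76.5 to 95.2%), and replicate 2 had 22 of 25 (88.0%, 70.04 to 95.8%). In the 6 unsorted libraries the share at exon 3 was 13.1% ± 5.91 (SD, n = 6), from 5.88 to 19.8%. The share at exon 2, the leading exon of the background, was 11.4% in sorted cells against 84.7% in the background. Its adjusted p was 8.5e-33 by a two-sided Fisher's exact test over the 328 genes with at least 10 sorted insertions, and 1 gene had a smaller p. Among these genes, 15.5% had a share at their leading exon that differed at an adjusted p below 0.05.

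Insertions at the noncoding exon 2 were not raised. They came to 2.25 and 1.97 per 10000 in the repressor sorted libraries and to 4.03 ± 0.80 (SD, n = 6) in the unsorted libraries. Exon 3 rose from 0.631 ± 0.297 per 10000 (SD, n = 6) to 18.0 and 14.5. Tested as a feature of its own, exon 3 of Tet2 had a log2 odds ratio of 4.62 ± 0.25, a 24.5-fold higher share of insertions (adjusted p = 3.9e-52, one-sided Fisher's exact test over 2194 pairs of gene and exon, of which 12.8% were called). Exon 2 had -0.97 ± 0.51 in the same test, and 0.14 with called genes left out of both totals. This test by exon was added after the data were seen. It counted positions shared between libraries in each of them. The 62 sorted insertions at exon 3 lay at 52 distinct positions and the 69 of the background at 66. The test by exon was not repeated with each position counted 1 time.

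**Figure D2:**
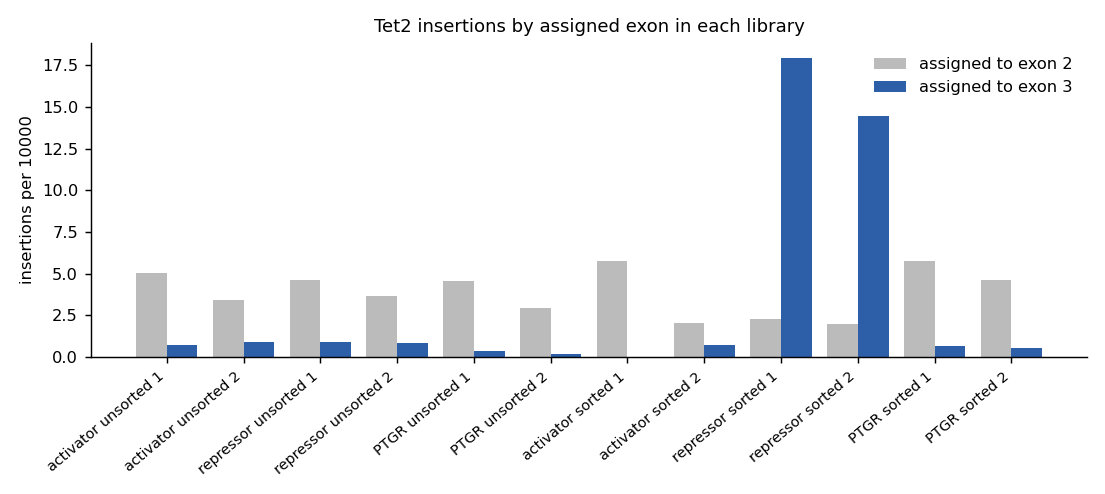
Tet2 insertions per 10000 insertions of the library (vertical axis) assigned to exon 2 (grey) and exon 3 (blue) in each of the 12 libraries. Exon 2 leads in 10 libraries, and exon 3 leads in the repressor sorted libraries alone, at 18.0 and 14.5.

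The 62 insertions that fed exon 3 in repressor sorted cells all lay in intron 2, a stretch of 25311 bases. The 40 insertions of replicate 1 lay 5343 to 25045 bases before exon 3 with a median of 19358, and the 22 of replicate 2 lay 13540 to 25045 bases before it with a median of 19691. The background held 66 insertions in that intron, and the median distance of its 69 exon 3 insertions was 20819 bases. Insertions on the opposite strand serve as an internal comparison, since they cannot splice the tag into Tet2. Over the whole gene, sorted repressor cells had 70 insertions on the strand of Tet2 and 2 on the other (97.2% on the gene's strand, Wilson 90.4 to 99.2%), against 503 and 397 in the background (55.9%, 52.6 to 59.1%). The opposite-strand log2 odds ratio was -2.60 ± 1.02 from those 2 insertions, too few for a test.

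**Figure D3:**
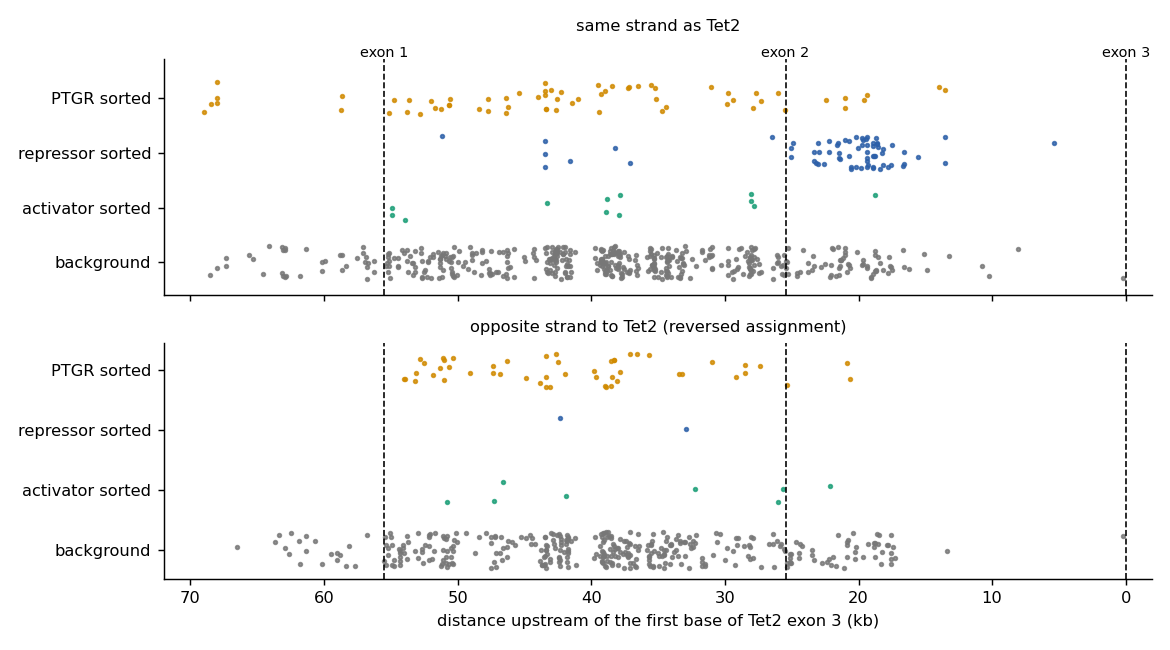
Position of Tet2 insertions as the distance upstream of the first base of exon 3 in kb (horizontal axis), for the background and the sorted cells of each screen, on the strand of Tet2 (top) and on the opposite strand (bottom); dashed lines mark exons 1 to 3 and the vertical scatter is only for legibility and insertions farther upstream lie outside the plot. Repressor sorted insertions on the gene's strand gather between exon 2 and exon 3, where 62 of 70 lie.

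In the other screens Tet2 was not called and its exon use stayed near the background. The activator sorted libraries held 10 and 4 insertions (5.75 and 2.72 per 10000), overlapping the unsorted ones, with a log2 odds ratio of -0.17 (interval -1.06 to 0.59). The PTGR sorted libraries held 39 and 30 (6.40 and 5.12 per 10000), with a log2 odds ratio of 0.23 (interval -0.15 to 0.60). The share of called genes was 4.64% in the activator screen and 0.666% in the PTGR screen, and 0 of the 4 and 7 members with at least 3 sorted insertions were called. By edgeR 0 of them were higher (4.47% and 0.29% of all tested genes) and 0 lower (0.141% and 0.0107%). The two-sided Fisher's exact test also found 0 lower members in either screen, where 0.88% and 0.548% of tested genes were lower. By exon, 0 member exons were called, against 8.04% and 0.846% of gene and exon pairs. Exon 3 received 1 of 14 insertions in the activator screen and 7 of 69 in the PTGR screen. The share at exon 2 was 92.9% and 89.9%, and the adjusted p of its difference from the background was 1 in both (two-sided Fisher's exact test), with 9.92% and 0.613% of genes differing in the respective screens.

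The difference between screens was tested itself by the interaction of sorting and screen in edgeR over all 12 libraries. For Tet2 the log2 effect in the repressor screen exceeded that in the activator screen by 2.45 (adjusted p = 1.4e-04, 2.01% of 9563 genes past 0.05) and that in the PTGR screen by 1.61 (adjusted p = 0.012, 1.93% past 0.05). The second difference no longer passed when repressor sorted replicate 1 (1.23, adjusted p = 0.37) or PTGR sorted replicate 2 (1.46, adjusted p = 0.093) was left out.

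The genes whose 12-library pattern was most like that of Tet2 were Pcgf6, Arid1a and Etv6, with Pearson's r of 0.962, 0.960 and 0.956 on log2(insertions per 10000 + 0.1) among 7997 genes. Pcgf6 is a subunit of a variant Polycomb complex, Arid1a a subunit of the BAF chromatin remodeller and Etv6 an ETS family repressor. Their repressor sorted counts were 46 and 24, 209 and 142, and 79 and 50, and each was called in the repressor screen. The likeness is set by these same high values in the repressor sorted libraries, and points share library and depth.

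By insertions over the whole gene Tet1 differed from Tet2, although both genes collected many. With 518 background insertions Tet1 ranked 136 of 20409 genes, and Tet2 ranked 146. Tet1 lies at chr10:62804570-62908996 on the minus strand. Of its background insertions, 474 were assigned to the exon 2 acceptor with in-frame stops before the start codon. Another 33 were assigned to exon 3, which keeps 68.7% of the coding sequence of the longest transcript. Each of these acceptors had 2 insertions in repressor sorted cells. Whether tagged Tet1 protein acts otherwise than tagged Tet2 was not tested. The repressor sorted libraries held 3 and 1 Tet1 insertions (1.35 and 0.658 per 10000), below all 6 unsorted libraries (4.28 to 5.92 per 10000). The log2 odds ratio was -2.25 ± 0.72 (interval -4.13 to -0.88), and its adjusted p was 0.00115 by a two-sided Fisher's exact test, by which 9.68% of tested genes were lower. Genes with fewer than 3 sorted insertions were not tested, so the shares of lower genes leave out strongly depleted ones. By edgeR the log2 fold change was -2.15 (adjusted p = 0.0046), in a screen where 4.86% of tested genes were lower at an adjusted p below 0.05. DESeq2, however, gave an adjusted p of 0.18. Without the filter of at least 3 sorted insertions, edgeR gave -2.35 (adjusted p = 0.50). Without sorted replicate 1 or 2, edgeR gave an adjusted p of 0.35 and 0.42. No member was called on the opposite strand, where 5.61% of genes were called in this screen, but Tet1 insertions were lower there too, at 6 against 477 in the background (log2 odds ratio -1.28 ± 0.59).

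This low value stood beside a general shift of genes that were not called. The 192 called genes held 54.8% of repressor sorted insertions and 2.95% of the background, so the share left for other genes was lower by 1.10 on the log2 scale. With called genes left out of both totals, a calculation added after the data were seen, the Tet1 value was -1.15. Among the 600 genes with at least 300 background insertions, 84 had a log2 odds ratio at or below that of Tet1. The median over these 600 genes was -1.32, and genes without a sorted insertion counted as lowest in both values.

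In the PTGR screen Tet1 was higher in sorted cells but was not called. The sorted libraries held 74 and 37 insertions (12.1 and 6.32 per 10000), both above the unsorted range of 4.28 to 5.92, although replicate 1 was far above replicate 2. The log2 odds ratio was 0.87 ± 0.15 (interval 0.57 to 1.17), under the threshold of 1, with an adjusted p of 7.5e-06 by Fisher's exact test. It was 1.26 in replicate 1 and 0.32 in replicate 2, and edgeR, which weighs that spread, gave an adjusted p of 0.998. Opposite-strand insertions were also more frequent, 85 against 477 with a log2 odds ratio of 0.62 ± 0.17 (adjusted p = 0.031), although not called, as 0.5% of genes were there. Of the Tet1 insertions in PTGR sorted cells, 106 of 111 were assigned to exon 2, against 480 of 518 in the background.

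Between screens, the Tet1 effect in the repressor screen was lower than that in the PTGR screen by a log2 difference of -3.05 (edgeR interaction, adjusted p = 6.1e-04). It fell short of 0.05 when PTGR sorted replicate 1 was left out (-2.41, adjusted p = 0.068). The activator screen gave 4 and 6 Tet1 insertions and a log2 odds ratio of -0.70 ± 0.46, whose interval of -1.77 to 0.19 includes 0.

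Tet3 was hardly reached. It held 12 background insertions, below the median of 15 for all genes, and 1 in repressor sorted, 1 in PTGR sorted and 0 in activator sorted cells. A count of 0 allows up to 0.935 per 10000 there, against a background of 0.117 per 10000, so a loss could not be detected at this depth. At this background 6 sorted insertions were the smallest number that would have been called in the repressor screen.

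**Figure D4:**
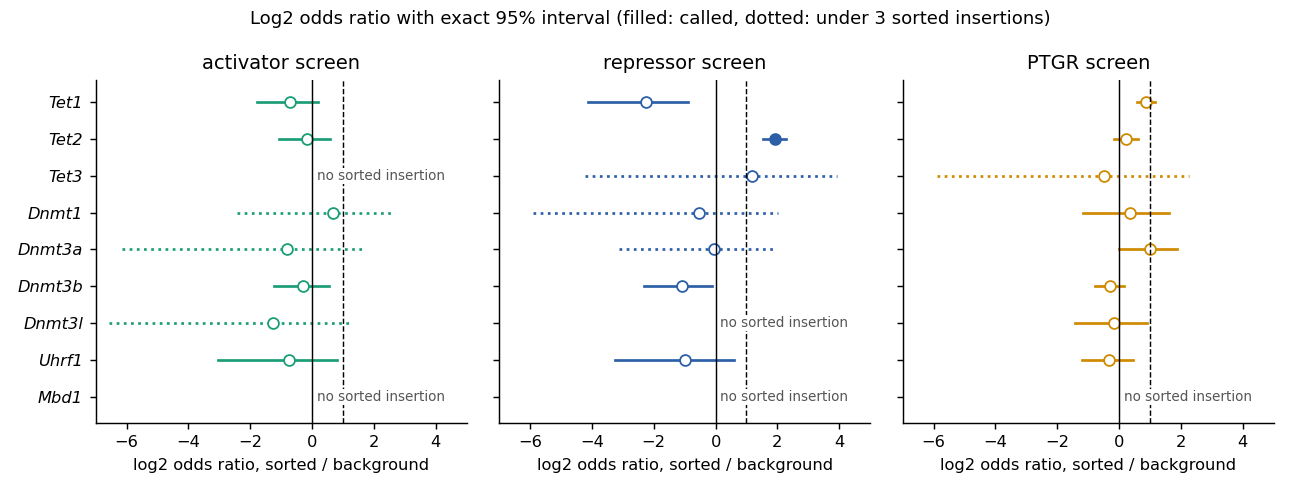
Log2 odds ratio of sorted against background insertions (horizontal axis) for each gene in each screen, with the exact 95% interval; filled points were called, dotted intervals rest on fewer than 3 sorted insertions and the dashed line marks the threshold of 1. Tet2 in the repressor screen (1.93) is the filled point.

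None of the de novo methyltransferase genes was called. Dnmt3b, at chr2:153649450-153687730 on the plus strand, had 465 background insertions, rank 205. Of these, 456 were assigned to an exon with an in-frame stop before the start codon, and 9 were not. The total therefore does not show how often a tagged Dnmt3b protein was made. Sorted counts of Dnmt3b were 6 and 6 in the activator, 3 and 5 in the repressor and 22 and 22 in the PTGR screen. The log2 odds ratios were -0.28 ± 0.42, -1.09 ± 0.51 and -0.31 ± 0.23, and the repressor value was 0.01 once called genes were left out of the totals. The PTGR replicates agreed closely, at 3.61 and 3.76 per 10000, and lay below the unsorted range of 3.84 to 5.59, without passing edgeR (adjusted p = 0.998).

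Dnmt3a had 56 background insertions and 1, 2 and 13 in activator, repressor and PTGR sorted cells. Its PTGR libraries held 6 and 7 insertions, or 0.984 and 1.20 per 10000, inside and just above the unsorted range of 0.241 to 1.11. The log2 odds ratio was 0.99 ± 0.44, with an interval of -0.01 to 1.88 (adjusted p = 0.38, Fisher's exact test). The PTGR unsorted libraries themselves were the highest of the background, and edgeR against them gave 0.19 (adjusted p = 0.998). Unlike Dnmt3b, most Dnmt3a insertions were assigned to an inner coding exon of the longest transcript, 38 of 56 to exon 7. In that transcript, the longest of 8 coding transcripts with this acceptor, it keeps 77.0% of the coding sequence. The share kept in the shorter ones is not given here.

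Dnmt3l, the inactive cofactor, had 76 background insertions and 1, 0 and 8 among activator, repressor and PTGR sorted cells. The 0 in the repressor screen allows up to 0.801 per 10000, above the background of 0.744, so a loss could not be detected at this depth. A gain would have needed 13 insertions to be called.

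For maintenance, Dnmt1 had 40 background insertions, and its sorted pairs were 0 and 2, 1 and 0, and 1 and 5 in the activator, repressor and PTGR screens. With 6 insertions the PTGR log2 odds ratio was 0.36 ± 0.63, and the intervals of all 3 screens include 0 and 1. Uhrf1, which brings Dnmt1 to newly replicated DNA, had 161 background insertions and 3, 3 and 15 sorted ones. Its log2 odds ratios were -0.75 ± 0.84, -0.98 ± 0.84 and -0.33 ± 0.39, with upper ends of their intervals at 0.82, 0.60 and 0.44, and the repressor value was 0.13 once called genes were left out of the totals. The reader Mbd1 had 2 background insertions and 0 sorted ones, where 0 allows up to 0.935, 0.801 and 0.251 per 10000 in the activator, repressor and PTGR screens, all above its background of 0.0196.

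The members also differed in how often the receiving exon left the coding frame open. Over all genes, 20.6% of background insertions were assigned to an exon with an in-frame stop before the start codon, in the longest coding transcript that uses the acceptor. The share was 91.5% for Tet1, 84.7% for Tet2, 98.1% for Dnmt3b and 82.9% for Dnmt3l, against 14.3% for Dnmt3a and 0% for Dnmt1 (0 of 40) and Uhrf1 (0 of 161). A share over 80% was found in 17.2% of the 7293 genes with at least 30 background insertions. Counted by insertions with no such stop, Tet1 had 44 in the background, Tet2 77, Dnmt3b 9 and Uhrf1 161, which orders the members otherwise than their totals do. The study mixed cassettes of all reading frames in equal parts, and the frame of the cassette at each insertion was not known here. An insertion with no such stop is therefore not known to give an in-frame product.

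In repressor sorted cells the share for Tet2 was 11.4% (Wilson 5.91 to 21.0%), well below its background interval of 81.3 to 87.6%. Exon 2 is the only Tet2 exon with such a stop. These are therefore the same 8 of 70 and 426 of 503 insertions as in the exon 2 share above, and not a separate result. Tet1 had 2 of 4 insertions at exons with such a stop in repressor sorted cells (15.0 to 85.0%), below its background interval as well but on 4 insertions. For Dnmt3b it was 87.5% in repressor and 100% in PTGR sorted cells (44 of 44), and for Tet1 94.6% in PTGR sorted cells. For context, the other 191 genes called in the repressor screen had 16.6% of sorted and 19.5% of background insertions at such exons. The 132 genes called in the activator screen had 2.20% and 13.6%, and the 62 called in the PTGR screen 7.51% and 8.38%.

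**Figure D5:**
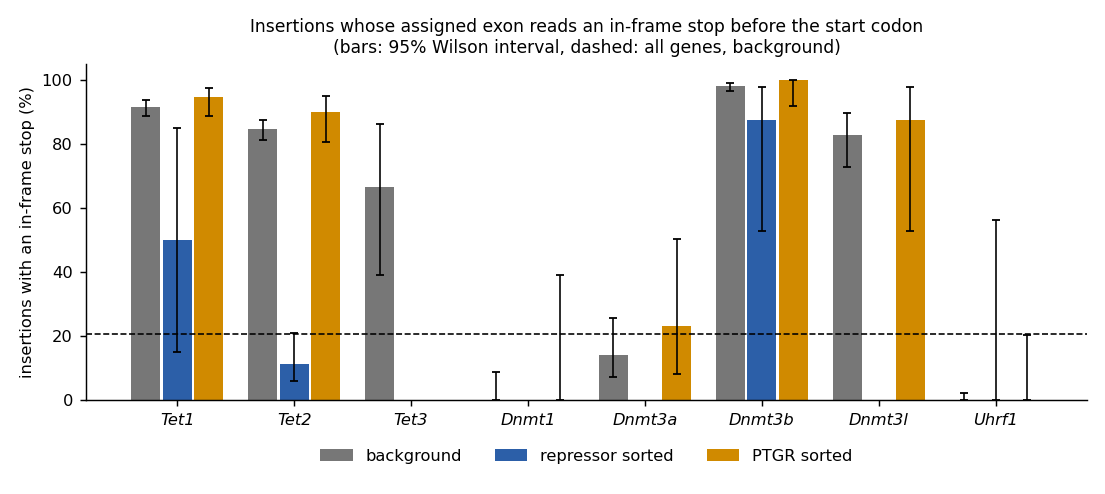
Percent of a gene's insertions assigned to an exon with an in-frame stop codon before the start codon (vertical axis), in the background and in repressor and PTGR sorted cells, where at least 3 insertions were found; bars carry 95% Wilson intervals and the dashed line is 20.6%, the share over all genes in the background. Tet2 falls from 84.7% to 11.4% in repressor sorted cells.

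Genes that act with these enzymes were not called in any screen. Among 10 further methyl-CpG readers, 2, 3 and 6 had enough sorted insertions to be tested in the activator, repressor and PTGR screens, and 0 were called, against 4.64%, 8.18% and 0.666% of all tested genes, so few or no calls would be found at those shares in lists of this size. The highest in the repressor screen was Zbtb38, a zinc-finger protein that binds methylated DNA, with 19 and 4 sorted insertions against 313 unsorted ones. The log2 odds ratio of 1.00 ± 0.31 had an adjusted p of 0.023 (Fisher's exact test), short of the call at 0.001, and edgeR gave an adjusted p of 0.0092 (9.97% of genes were higher by edgeR). Zbtb4, a related reader, was lower there by edgeR (5 and 0 insertions, adjusted p = 0.017, 4.86% of tested genes lower) and had the highest tested value of this list in the activator screen, -1.39 ± 0.59. In the PTGR screen the glycosylase gene Mbd4 came highest, with 1 and 3 insertions and 1.64 ± 0.84 (adjusted p = 0.48, Fisher's exact test).

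Of 8 genes for TET partners and base excision, 1, 1 and 5 were tested and 0 called. Gadd45a was the tested gene in the activator and repressor screens, with log2 odds ratios of -0.47 ± 0.55 and -1.50 ± 0.73. Tdg, the glycosylase that removes oxidised methylcytosine, came highest in the PTGR screen with 1 and 5 insertions and 0.73 ± 0.64 (adjusted p = 0.70, Fisher's exact test).

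Of 11 partners and relatives of the methyltransferases, 4, 3 and 10 were tested and 0 called. Smchd1, a structural chromosome protein of X inactivation, was highest in the repressor screen, with 3 and 1 insertions against 15 unsorted ones. Its log2 odds ratio from 4 insertions, 2.86 ± 0.81, did not reach the call (adjusted p = 0.038, Fisher's exact test). Pcna, the replication clamp, had 4 and 1 insertions in the activator screen (0.73 ± 0.66), and Cdca7l had 2 and 1 in the PTGR screen (1.51 ± 0.96). The median log2 odds ratio over tested genes of the 3 lists ran from -1.55 to 0.93, on at most 10 genes each, and over all tested genes it was -0.14, -0.39 and 0.14 in the activator, repressor and PTGR screens.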

How the data were processed

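Per the labels and the methods of the study, the authors trimmed reads with Trim Galore 0.6.0, aligned them to mm10 with Bowtie2, removed duplicates with SAMtools 1.9 and paired every insertion with the closest exon downstream that has a splice acceptor in a protein-coding GENCODE transcript. Reads of low mapping quality were also removed. The authors deposited insertion lists, once by strand as mapped and once with strands reversed, and 3 tables with counts per gene, each with the authors' log2 odds ratio and adjusted p-value, which were not used. Unique positions at most 200 kb from the exon were counted here per gene and library. Sorted counts were tested against the sum of the 6 unsorted libraries by one-sided Fisher's exact test, as the study did, among genes with at least 3 sorted insertions. At the same thresholds fewer genes were called here in each screen than the study reported, and the reason was not tested. Sorted libraries held 14705 to 60980 and unsorted libraries 54088 to 233799 counted insertions, so genes with few insertions have wide intervals. edgeR, DESeq2 and a Cochran-Mantel-Haenszel test were run as alternatives, beside other distance limits, backgrounds, thresholds, totals and left-out libraries. edgeR was also used for differences between screens, and the Fisher, Cochran-Mantel-Haenszel and edgeR tests between sorted and unsorted counts were checked on simulated data. Benjamini-Hochberg adjustment covered all genes tested. Exon acceptors and reading frames were read from GRCm38.p6 and a GENCODE annotation of another release than the one the authors used. In the reversed lists the strand of each insertion is turned before assignment. Repeated listing of positions (100% of positions in the repressor unsorted libraries) was removed by counting positions. The named genes are the 9 members, any list gene called or, per list and screen, highest among those tested, and the 3 genes most correlated with a called member among genes with at least 30 insertions. The members, lists and rules were chosen with earlier results of these data known. Python 3.11.15 with scipy 1.17.1 and R 4.3.3 with edgeR 4.0.16 and DESeq2 1.42.0 were used.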

Additional observations from a re-analysis of the deposited data

Results flagged for a closer look

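For Tet2, the effect of sorting differed between screens. On the log2 scale it was 2.45 higher in the repressor than in the activator screen (adjusted p = 1.4e-04, edgeR interaction), and 1.61 higher than in the PTGR screen (adjusted p = 0.012). For Tet1, the effect in the repressor screen was lower than in the PTGR screen, with a difference of -3.05 (adjusted p = 6.1e-04). Opposite-strand Tet1 insertions showed the same order, with log2 odds ratios of -1.28 in the repressor and 0.62 in the PTGR screen, and the part of the neighbourhood in the difference was not tested. None of the 9 genes had an unsorted library that stood apart from the other 5 by Dixon's test.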

How the results depend on the processing

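Of 662 values under other settings, 638 stayed on their side of the threshold or, where untested, moved by less than their error. The sign turned in 25, of which 14 are among those 638 and belong to genes with 1 or 2 sorted insertions (Dnmt1, Dnmt3a and Tet3). Tet2 lost its call in the repressor screen with edgeR without a filter (1.89, adjusted p = 0.21, 0 called). It also lost it with edgeR when sorted replicate 1 (log2 fold change 1.89) or 2 (2.40) was left out, which leaves 1 sorted library. The opposite-strand assignment gave Tet2 a log2 odds ratio of -2.60 and 0 members called. Such insertions cannot splice the tag into Tet2 and serve as the internal comparison above. By Fisher's exact test on the gene's own strand, the Tet2 value ran from 1.74 to 2.04 with each library left out in turn. In the PTGR screen 1 member, Tet1, was called at an adjusted p below 0.05 with a log2 odds ratio above 0, and likewise without sorted replicate 2 (1.26, adjusted p = 3.6e-08), so counts there ran from 0 to 1 over left-out libraries, and stayed at 0 in the activator and 1 in the repressor screen. The share of Tet2 insertions at exon 2 ran from 11.1 to 12% in the repressor and 89.7 to 90.0% in the PTGR screen over left-out replicates. In the activator screen it was 100% without sorted replicate 2, and too few insertions were left without replicate 1. Differences between screens past the threshold numbered 2 to 3.

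The labels do not say that replicate numbers pair the libraries, and same-numbered sorted and unsorted libraries deviated together with r of 0.391 in the activator, 0.0438 in the repressor and 0.250 in the PTGR screen. With the replicate number as a block, Tet2 in the repressor screen had 2.07 by edgeR (adjusted p = 1.1e-09) and 1.86 by the Cochran-Mantel-Haenszel test (adjusted p = 5.7e-21). Tet2 exon use in the PTGR screen, 89.9%, turned from above to below the background under that block and with the screen's own background (adjusted p = 1 in both). In the PTGR screen the count of called genes was 62 by Fisher's exact test, 27 by edgeR, 31 with the block, 24 by DESeq2 and 39 by the Cochran-Mantel-Haenszel test.

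Apart from the opposite-strand value of Tet2 in the repressor screen, the signs that turned belonged to values that were not called. Leaving called genes out of the totals (chosen after seeing the data, as were counting shared positions only 1 time and testing exons as features) gave 0.41 for Tet2 and 0.30 for Dnmt3b in the activator screen and 0.011 for Dnmt3b, 0.13 for Uhrf1, 0.55 for Dnmt1 and 1.06 for Dnmt3a in the repressor screen. Opposite-strand assignment gave 0.011 for Dnmt3b in the activator and 0.41 for Uhrf1 in the PTGR screen. With 1 library left out, values ran from -0.86 to 0.22 for Tet2 in the activator screen (the latter without sorted replicate 2), and in the PTGR screen from -1.25 to 1.13 for Dnmt1 (the former without sorted replicate 2) and from -0.60 to 0.20 for Dnmt3l (the latter without sorted replicate 1). The cause was not tested. Depth limits Tet3, Dnmt1 and Mbd1 most.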
